A study of Mus musculus with 3 samples.

Results

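The kynurenine pathway degrades the amino acid tryptophan and, in liver, leads to the cofactor NAD. It was followed here through the genes of 8 enzymes, Tdo2, Afmid, Kmo, Kynu, Haao, Qprt, Acmsd and Nadsyn1. The 8 genes were selected by name as the steps of the pathway, with results of the same contrast already known, and for each gene the probe set with the highest mean over the 3 arrays was used and the others are given beside it. Probe sets listing 1 of these genes as their only gene were found for 7 of the 8, 14 probe sets among 45101 on the array, out of 18193 genes with such a probe set. Acmsd was not analysed here. Since both the choice of genes and that of probe sets rest on values of these arrays, the differences of the pathway genes are described without a test.

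RNA came from whole liver of 3-month-old mice of mixed strain, collected 1 week after 1 intraperitoneal dose of 400 microL of virus, and each mouse gave 1 array. The Cre virus group (n = 1) received MUP-iCre-AAV8, an adeno-associated virus that carries the iCre recombinase, an enzyme that cuts out floxed DNA. The control virus group (n = 2, labelled biological replicates) received MUP-EGFP-AAV8, which carries the fluorescent protein EGFP. The sources used here do not spell out the MUP element of either vector. They also disagree on genotype: the design text has floxed HNF4alpha mice in both groups, but each sample's genotype label is HNF4alpha knockout for the Cre liver and wild type for the control livers, so virus and genotype cannot be told apart.

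Tryptophan is first opened by tryptophan dioxygenase (Tdo2) and turned into kynurenine by a formamidase (Afmid). Kynurenine is then hydroxylated (Kmo), cleaved (Kynu) and its ring opened (Haao), giving a product that closes by itself to quinolinate. Quinolinate feeds NAD synthesis through Qprt and Nadsyn1, while Acmsd diverts the Haao product towards complete oxidation. Aminotransferases take kynurenine aside to kynurenic acid. Liver carries most of the tryptophan breakdown of the body, and HNF4alpha, a transcription factor of the nuclear receptor family, is needed for the identity of hepatocytes.

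The values are log2 expression, so 1 unit is a 2-fold difference, and differences are the Cre liver minus the control mean. Their standard error (SE) comes from limma, a linear model that shares the spread of the controls over all fitted genes, and assumes that the lone Cre liver varies like them. The median of the array was 4.16 in the Cre liver and 4.18 and 4.15 in the control livers, and Pearson's r across probe sets, which are not independent, was 0.970 and 0.972 between the Cre array and the controls and 0.993 between the controls. All 4 probe sets of Hnf4a, the targeted gene, were lower in the Cre liver, with differences of -1.18 to -0.55 on the log2 scale. Probe positions against the floxed part were not used here, and a probe set outside it would check nothing. The number of arrays limits the precision of every value.

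In the Cre liver Kmo and Haao were far lower, Qprt, Nadsyn1 and Afmid moderately lower, and Tdo2 slightly higher, while Kynu, the step between Kmo and Haao, was not lower. Of the 7 measured genes 5 lay below both controls (33.6% of all 12735 fitted genes did) and 2 above both (49.7% did). At least 1 log2 unit below both controls were 3 of the 7, namely Haao, Kmo and Qprt, against 3.72% of fitted genes, and 0 lay that far above both, against 3.67%. Nothing is read from these shares, since the genes were chosen with this contrast known. Just inside that limit lay Qprt, at -1.29, and just outside it Nadsyn1, at -0.92. The median difference of the 7 genes was -0.92, beside 0.09 over all fitted genes.

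**Figure D1:**
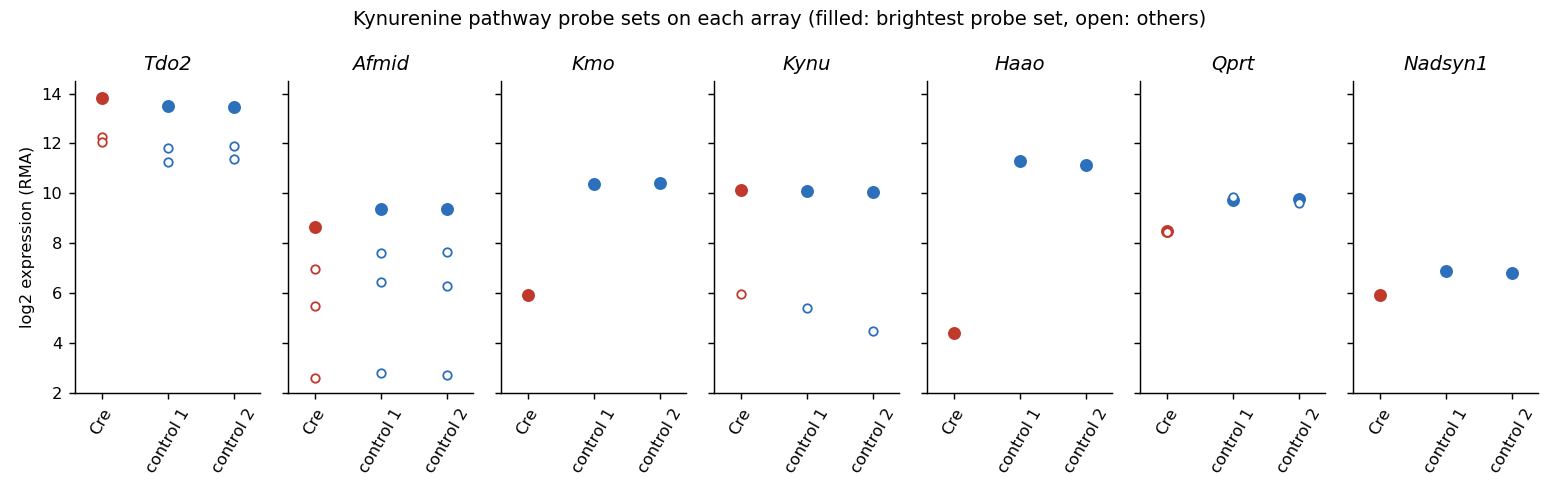
Log2 expression (vertical axis) of every probe set of the 7 measured pathway genes in the Cre liver (red) and the 2 control livers (blue), 1 point per array, with the brightest probe set filled and the others open. Haao is at 4.42 in the Cre liver and at 11.28 and 11.15 in the controls, while Kynu on its brightest probe set is at 10.14 in the Cre liver and at 10.10 and 10.04 in the controls.

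The promoters of Haao and Kmo, the 2 genes with the largest differences, and of Tdo2, the first step, which was not lower, are shown so that their sequence can be set beside the values. They run 5′ to 3′ along each gene, from 250 bases before the start site to 50 after it, as given by RefSeq on GRCm38.p6. Haao lies at chr17:83846741-83847040 on the minus strand, Kmo at chr1:175631943-175632242 on the plus strand and Tdo2 at chr3:81975679-81975978 on the minus strand. The start site used for Haao lies 2191 bases inside the annotated gene (chr17:83831348-83848981), whose outermost start lies further upstream. Capitals mark the 7-letter motif described after them.
Haao: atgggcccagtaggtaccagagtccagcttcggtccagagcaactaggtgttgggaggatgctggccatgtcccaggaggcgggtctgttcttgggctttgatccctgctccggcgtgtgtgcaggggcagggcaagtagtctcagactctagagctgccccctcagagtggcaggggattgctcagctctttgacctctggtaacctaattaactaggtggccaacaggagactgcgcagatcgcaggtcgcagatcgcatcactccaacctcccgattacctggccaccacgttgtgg
Kmo: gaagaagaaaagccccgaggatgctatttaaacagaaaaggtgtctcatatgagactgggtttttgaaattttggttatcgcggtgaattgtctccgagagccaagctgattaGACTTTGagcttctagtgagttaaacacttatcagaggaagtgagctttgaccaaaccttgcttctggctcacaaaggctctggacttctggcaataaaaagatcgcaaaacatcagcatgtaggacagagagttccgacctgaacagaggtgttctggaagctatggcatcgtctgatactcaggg
Tdo2: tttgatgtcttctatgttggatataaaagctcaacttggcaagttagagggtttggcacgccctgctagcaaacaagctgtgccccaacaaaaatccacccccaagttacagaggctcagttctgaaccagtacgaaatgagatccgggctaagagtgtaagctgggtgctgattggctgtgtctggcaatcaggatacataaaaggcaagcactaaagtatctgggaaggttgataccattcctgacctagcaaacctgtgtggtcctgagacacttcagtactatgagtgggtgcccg

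Such windows were found for 7 of the 8 genes, all but Kynu. The 9-letter motif CAAAGTCCA, described as favouring HNF4alpha, was in none of the 7 on either strand, and in 0.475% of the 32851 promoters of the same length. Its first 7 letters, CAAAGTC, were found in 1 of the 7, that of Kmo, on the opposite strand (read here as GACTTTG) and beginning 137 bases before the start, against 4.44% of all promoters. A match is only a run of letters, and the lack of one says nothing about binding of the receptor here or elsewhere.

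Tryptophan dioxygenase, which commits tryptophan to the pathway, was slightly higher. Tdo2 (chr3:81958412-81975728) on probe set 1419093_at was at 13.81 in the Cre liver, against 13.50 and 13.44 in the control livers, a difference of 0.34 ± 0.08 (SE), or 1.26-fold. The Cre value lay above both controls, which were 0.06 apart. Its other probe sets pointed the same way: 1449337_at was at 12.27 in the Cre liver against 11.81 and 11.89 in the controls, and 1455770_at at 12.04 against 11.26 and 11.37. These are differences of 0.43 and 0.72, so the 3 probe sets of Tdo2 give between 1.26-fold and 1.65-fold higher.

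Afmid, the formamidase that releases kynurenine (chr11:117825503-117839908), was lower. Probe set 1452944_at was at 8.65 in the Cre liver, against 9.36 and 9.36 in the control livers, a difference of -0.71 ± 0.12 (SE), or 1.63-fold lower. On all 4 of its probe sets the Cre value lay below both controls, as it did for 37.6% of the 34945 probe sets that list 1 gene. The other differences were -0.65 on 1428885_at, -0.87 on 1431722_a_at and -0.16 on 1447638_at. That last probe set was dim, with a mean of 2.72 over the arrays, below the 3.77 used as the limit for fitting a gene.

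Kmo, which hydroxylates kynurenine (chr1:175632193-175660853), was the second lowest of the pathway. Its only probe set, 1418998_at, was at 5.93 in the Cre liver, against 10.39 and 10.43 in the control livers. The difference was -4.48 ± 0.12 (SE), or 22.3-fold lower, while the controls differed by 0.04. Ordered from the largest fall, Kmo held place 45 among the 12735 fitted genes.

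Kynu, the kynureninase that acts on the Kmo product (chr2:43555258-43683048), did not share that difference. Probe set 1430570_at was at 10.14 in the Cre liver, against 10.10 and 10.04 in the control livers. The Cre value lay above both controls, but its difference of 0.07 ± 0.11 (SE) was close to the 0.06 between the controls. The dimmer probe set 1451903_at was at 5.97 in the Cre liver against 5.42 and 4.49 in the controls, a difference of 1.02, where the controls themselves were 0.93 apart. Neither probe set of Kynu was lower in the Cre liver.

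Haao, the dioxygenase that opens the ring of hydroxyanthranilate (chr17:83831348-83848981), had the largest difference of the pathway. Its only probe set, 1432492_a_at, was at 4.42 in the Cre liver, against 11.28 and 11.15 in the control livers, a difference of -6.80 ± 0.13 (SE), or 111-fold lower. It held place 2 from the largest fall among all fitted genes. The Cre value was near the median of all probe sets, and no detection calls were used, so the size of the fold is uncertain. The controls differed by 0.13 and lay far above the Cre value. The suffix _a_at marks probe sets that can read several transcripts of a gene.

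**Figure D2:**
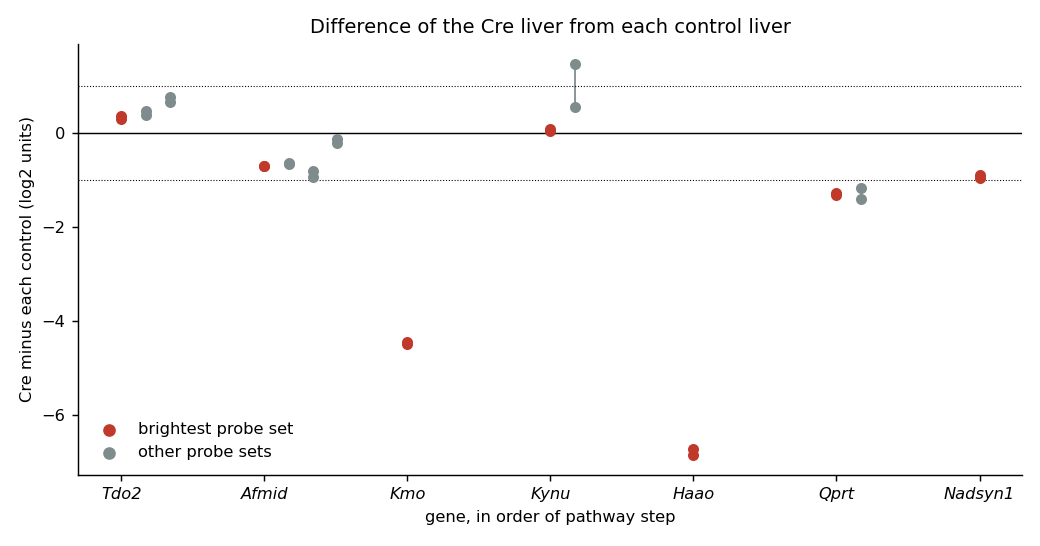
Difference of the Cre liver from each control liver in log2 units (vertical axis), with 2 points per probe set joined by a line, for the genes in order of pathway step. The brightest probe set is red, the others grey, and dotted lines mark 1 log2 unit. The mean differences were -4.48 for Kmo and -6.80 for Haao, while Kynu, the step between them, was at 0.07.

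Qprt and Nadsyn1, which act on the way from quinolinate to NAD, were lower by a smaller amount. Qprt, quinolinate phosphoribosyltransferase (chr7:127107770-127122029), was at 8.48 in the Cre liver, against 9.74 and 9.78 in the control livers, on probe set 1418837_at. That was a difference of -1.29 ± 0.12 (SE), or 2.44-fold lower, and 1418836_at gave the same size, -1.29, with 8.47 in the Cre liver against 9.87 and 9.63 in the controls. Nadsyn1, the NAD synthetase (chr7:143795589-143822862), was at 5.94 in the Cre liver against 6.90 and 6.82 in the controls on its only probe set, 1430359_a_at. The difference of Nadsyn1 was -0.92 ± 0.15 (SE), or 1.90-fold lower, with the Cre value below both controls.

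Across all 14 probe sets of the pathway genes, 9 had their Cre value below both controls, as had 37.6% of the 34945 probe sets that list 1 gene, and 5 above both, as had 39.5%. Nothing is read from these counts either. The 5 were those of Tdo2 and Kynu, and the 9 those of Afmid, Kmo, Haao, Qprt and Nadsyn1, so the probe sets of a gene never differed in sign. All 4 genes with several probe sets, Tdo2, Afmid, Kynu and Qprt, could be compared in this way, and Kmo, Haao and Nadsyn1 rest on 1 probe set each. In whole liver, fewer cells of a type and less RNA per cell cannot be told apart for a single gene. On their brightest probe sets the 7 fitted hepatocyte markers had a median difference of 0.09, from -0.11 for Alb to 0.33 for Cps1. Other probe sets of Ttr, one of these markers, ran from -0.91 to -0.21, and those of Apoa1 from 0.09 to 0.14.

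**Figure D3:**
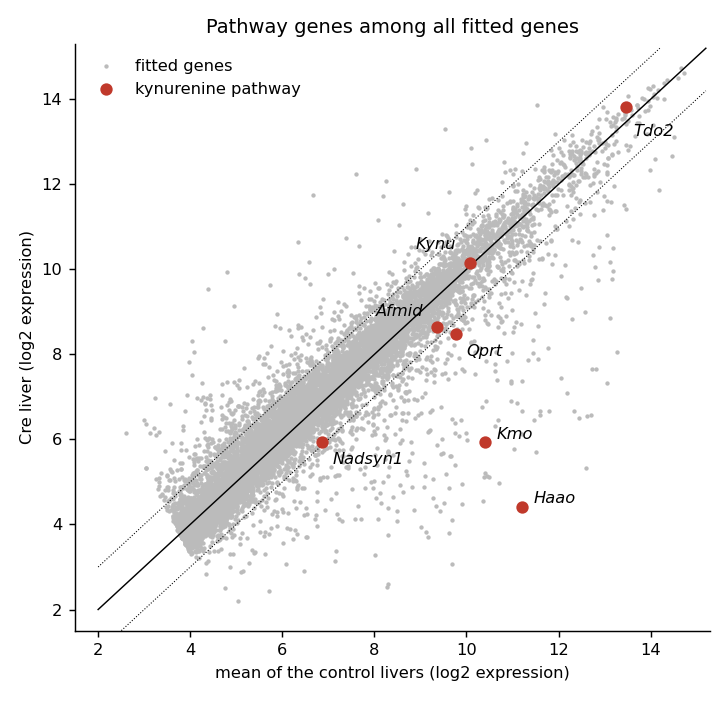
Log2 expression in the Cre liver (vertical axis) against the mean of the 2 control livers (horizontal axis) for the 12735 fitted genes (grey), with the 7 pathway genes in red, the line of equality solid and 1 log2 unit either side dotted. Haao and Kmo lie far below the line, Tdo2 and Kynu next to it.

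The genes whose pattern over the 3 arrays was closest to that of Haao were found by the Euclidean distance between values centred on each gene's own control mean. The nearest 5 were Dio1, a thyroid hormone deiodinase, at a distance of 0.26, the cytochrome P450 genes Cyp2c54 (0.50), Cyp2a12 (0.66) and Cyp2d26 (0.89), and Otc, a urea cycle enzyme (0.74). Their differences ran from -7.27 for Cyp2c54 to -5.94 for Cyp2d26, and with 3 arrays this likeness reflects little more than the size of the difference.

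Markers of liver cell types were read beside the pathway. None of the 7 fitted hepatocyte markers, of 8 listed, passed limma's test (2 had an unadjusted p under 0.05, both higher). Over all 12735 fitted genes, 3977 had an unadjusted p under 0.05, so nothing is read from such counts in these lists. The summed unlogged signal of the hepatocyte markers was 141205 in the Cre liver against 134552 and 135893 in the controls. Macrophages also express Kmo and Kynu. All 12 Kupffer cell and macrophage markers had differences from the control mean above 0, with a median of 0.70. Over all fitted genes the median was 0.09, and 49.7% lay above both controls. Not every macrophage marker did: Csf1r was at 8.78 in the Cre liver against 8.38 and 8.85, and Cd163 at 6.38 against 6.21 and 6.38. Other probe sets of Csf1r gave 0.16 and -0.24, and those of C1qb 0.78 and 0.33. The summed signal of the macrophage markers was 2524 in the Cre liver against 1309 and 1993 in the controls. In this list 3 had an unadjusted p under 0.05, all higher. The scavenger receptor gene Marco was the 1 marker of the list that rose in limma's test (1.88 ± 0.16 SE, adjusted p = 0.0097). A second, dimmer probe set of Marco went the other way, with 3.98 in the Cre liver against 4.34 and 4.30 in the controls, a difference of -0.34. The macrophage signal also differed between the control livers, and the part of macrophages in the Kmo and Kynu values was not tested. The summed signal of 6 endothelial markers was 1141 against 1023 and 1153, that of 6 stellate cell markers 2912 against 2293 and 2475, and none of either list passed limma's test (2 endothelial markers and 1 stellate cell marker had an unadjusted p under 0.05). Neutrophil markers summed to 51.1 in the Cre liver against 51.9 and 49.2 in the controls, and those of T, NK and B cells to 91.0 against 94.9 and 92.7. None of the 2 and 3 fitted in these lists passed limma's test, and 0 had an unadjusted p under 0.05. Of 2 fitted cholangiocyte markers, Sox9 rose (2.35 ± 0.43 SE, adjusted p = 0.0452) and Epcam was at 0.28. The controls of Sox9 were 0.95 apart, and its other probe sets gave 1.10 and 0.43. Krt19 and Krt7, of the same list, were dim and not fitted. Krt19 was at 3.59 in the Cre liver against 3.72 and 3.79 in the controls, and Krt7 at 3.26 against 3.34 and 3.13.

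Genes that surround the pathway were also compared, in 5 lists of 71 genes, 68 with a probe set and 57 bright enough to be fitted. These were tested with limma's moderated test, adjusted by Benjamini-Hochberg over all 12735 fitted genes. In the Cre liver 13 fell (22.8% of the 57, against 5.21% of all fitted genes) and 5 rose (8.77%, against 6.71%), while 39 did not pass. These lists too were chosen with earlier results of these data known, so nothing is read from the shares. Ido2, one of the 13, was bright enough only in the controls, so that a difference was bound up with its entry into the fit; without it 12 of 56 fell. The median of the 57 was 0.10, beside 0.09 over all fitted genes.

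The side branches from tryptophan and kynurenine held the largest of these falls. Aadat, an aminotransferase that makes kynurenic acid, was at 5.12 in the Cre liver, against 10.38 and 10.37 in the control livers. It fell by 5.25 ± 0.12 SE (adjusted p = 0.00107), on 1 probe set. Kyat1, another kynurenine aminotransferase, fell to 6.13 in the Cre liver, against 8.13 and 7.91 in the controls (-1.89 ± 0.17 SE, adjusted p = 0.00986). Kyat3, of the same reaction, was at 10.90 in the Cre liver against 10.44 and 10.44 in the controls and did not pass (0.46 ± 0.10 SE, adjusted p = 0.067, and from 0.038 to 0.128 over 8 other settings). Kyat1 was read on probe set 1428151_x_at. Its call was lost without probe sets suffixed _s_at, _x_at or _a_at (-0.66, adjusted p = 0.424, against values from 0.000957 over 8 settings). The remaining probe set of Kyat1, 1446302_at, had controls 1.01 apart. Its suffixed probe sets 1452678_a_at and 1438348_x_at gave -1.92 and -1.01.

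Ido2, a relative of the dioxygenases that open tryptophan, was at 3.06 in the Cre liver, against 6.07 and 6.07 in the controls. The Cre value of Ido2 lay below the limit for dim genes, so its difference of -3.01 is given as a description. Ido1, the inducible enzyme of the same reaction, was dim in every liver, at 3.01 in the Cre liver against 3.38 and 3.01 in the controls, and was not fitted. In this list of 18 genes, 13 fitted, 5 fell, Ido2 included, and 1 rose, with a median of 0.01. The other falls, named after their values were seen, were Got2, the mitochondrial aspartate aminotransferase (-1.17 ± 0.10 SE, adjusted p = 0.0097), and Ddc, the aromatic amino acid decarboxylase (-1.46 ± 0.15 SE, adjusted p = 0.0144). The rise was that of Wars, which charges tryptophan onto its transfer RNA (0.85 ± 0.16 SE, adjusted p = 0.0489, and from 0.0336 to 0.182 over 8 other settings).

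Downstream of Acmsd, 3 of 12 genes listed with the oxidative route fell and 1 rose, with a median of 0.19. Aldh8a1, which oxidises aminomuconate semialdehyde, was at 6.86 in the Cre liver, against 11.15 and 11.05 in the control livers. It fell by 4.24 ± 0.12 SE, or 18.9-fold (adjusted p = 0.00107), and its second probe set gave -4.10. Gcdh, glutaryl-CoA dehydrogenase, fell to 8.14 against 10.18 and 10.43 in the controls (-2.16 ± 0.15 SE, adjusted p = 0.00603). Dhtkd1, which acts on oxoadipate just before it, fell as well (-0.96 ± 0.14 SE, adjusted p = 0.0275). Of the later steps, shared with fatty acid oxidation, Echs1, Hadh and Acat1 did not pass, at -0.19, 0.19 and 0.34. Hadha, a listed gene for a subunit of the trifunctional protein of fatty acid oxidation, rose (1.10 ± 0.18 SE, adjusted p = 0.0341, and from 0.00445 to 0.0605 over 8 other settings). Whether Hadha takes part in the tryptophan route was not tested.

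**Figure D4:**
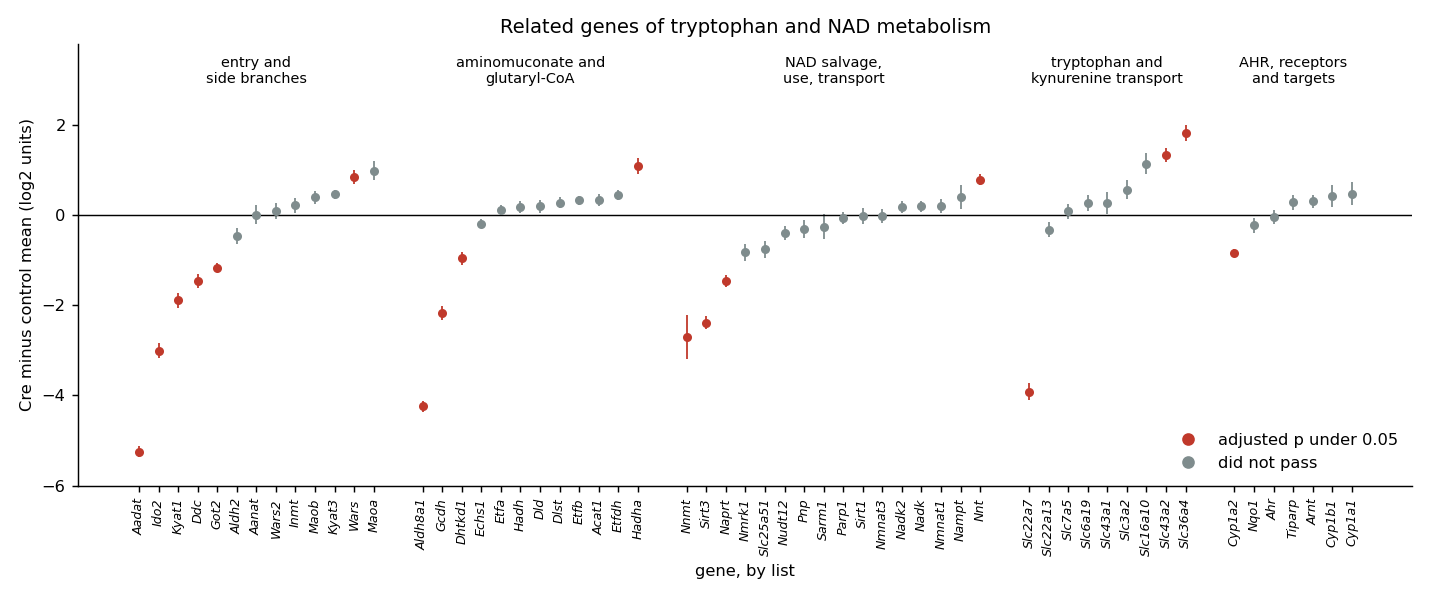
Difference of the Cre liver from the control mean in log2 units (vertical axis), with limma's SE as bars, for the 57 fitted related genes in 5 lists, ordered by size within each list. Red points passed an adjusted p of 0.05 and grey points did not; Aadat, at -5.25, Aldh8a1, at -4.24, and Slc22a7, at -3.91, are the lowest.

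NAD can also be made from nicotinate and nicotinamide, and 3 of 16 fitted genes of salvage, use and transport fell and 1 rose, with a median of -0.16. Naprt, which starts the route from nicotinate, was at 6.93 in the Cre liver, against 8.38 and 8.42 in the control livers, and fell by 1.47 ± 0.13 SE (adjusted p = 0.0104). Nampt, which starts the route from nicotinamide, did not pass (0.40 ± 0.26 SE, adjusted p = 0.361), with 6.90 in the Cre liver against 6.24 and 6.75 in the controls. Nmnat1 and Nmnat3, which catalyse a step that these routes share, were at 0.21 and -0.02, and the NAD kinase gene Nadk at 0.20, and none of them passed. The next gene was read on its only probe set, 1417892_a_at. Sirt3, a mitochondrial NAD-dependent deacylase, fell (-2.39 ± 0.14 SE, adjusted p = 0.00367). Nnmt, which methylates nicotinamide, was at 6.76 in the Cre liver against 10.01 and 8.90 in the controls, which differed from each other by over 1 log2 unit (-2.70 ± 0.49 SE, adjusted p = 0.0437, and from 0.00679 to 0.0771 over 7 other settings). Nnt, the mitochondrial transhydrogenase, rose (0.79 ± 0.12 SE, adjusted p = 0.0305, and from 0.00685 to 0.14 over 8 other settings). A second probe set of Nnt gave 0.58, and a dim one -0.24.

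Among 9 fitted transport genes 2 rose and 1 fell, with a median of 0.28. The 1 that fell, Slc22a7, was read on its only probe set, 1451460_a_at. Slc36a4, a carrier of tryptophan and proline, was at 7.33 in the Cre liver against 5.39 and 5.61 in the controls (1.83 ± 0.18 SE, adjusted p = 0.0125). Slc43a2, a carrier of large neutral amino acids, rose as well (1.33 ± 0.15 SE, adjusted p = 0.0169). Slc22a7, an organic anion carrier, fell to 4.38 in the Cre liver against 8.46 and 8.13 in the controls (-3.91 ± 0.20 SE, adjusted p = 0.00269). Slc16a10, an aromatic amino acid carrier, was at 1.15 ± 0.23 SE and did not pass (adjusted p = 0.0535, and from 0.0216 to 0.0892 over 8 other settings, of which 4 passed).

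Kynurenine and kynurenic acid can activate the aryl hydrocarbon receptor, so its gene and some targets were listed. Ahr itself was at 8.95 in the Cre liver against 8.88 and 9.12 in the controls and did not pass (-0.04 ± 0.16 SE, adjusted p = 0.867). Of 7 fitted genes 1 fell and 0 rose in limma's test (0 with an unadjusted p under 0.05 were higher), with a median of 0.28. The fall was that of Cyp1a2, a hepatocyte cytochrome P450, which was at 11.62 in the Cre liver against 12.47 and 12.44 in the controls (-0.83 ± 0.09 SE, adjusted p = 0.0158). The other targets Cyp1a1, Cyp1b1, Tiparp and Nqo1 were at 0.48, 0.42, 0.28 and -0.23 and did not pass. No metabolite was measured, so levels of kynurenine, quinolinate or NAD are not known from these arrays.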

How the data were processed

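Liver RNA of 3 mice was labelled with biotin and hybridised to 1 array each, per the labels' protocols. The deposited log2 values were made by the authors, and the submitters' processing notes name Partek 6.5 and RMA. No label names the log base, which was taken as 2 from the range, 1.59 to 15.05. RMA equalises the arrays and compresses differences near background.

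Of 45101 probe sets, 64 were array controls, 34945 listed 1 gene, 932 several and 9160 none. The brightest of a gene's probe sets stood for it, and genes whose mean reached the 30th percentile (3.77) entered the fit. Entrez IDs gave current symbols, from RefSeq names on GRCm38.p6, for 34741 of them. limma 3.58.1 in R 4.3.3 (lmFit, eBayes with trend) compared Cre with control virus, two-sided, with Benjamini-Hochberg adjustment and a threshold of 0.05. The controls leave 1 residual degree of freedom, to which moderation added 3.18. The fit was tested on simulated data. The pathway genes, lists and tests were chosen with earlier results of these data known. Genes named were the 8 pathway genes, Hnf4a, up to 3 passing rises and falls per list, genes next to the pathway, and the 5 nearest to the pathway gene with the largest difference. Figures used matplotlib 3.10.9.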

Additional observations from a re-analysis of the deposited data

How the results depend on the processing

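The 7 pathway genes kept the sign of their difference under all settings run. The count at least 1 log2 unit below both controls was 3 without either control and under both other scalings, 2 without probe sets suffixed _s_at, _x_at or _a_at, which leaves out Haao and Nadsyn1, 5 at a limit of 0.5 log2 units and 2 at a limit of 2. As the mean of its probe sets Kynu was at 0.54, Tdo2 at 0.50 and Afmid at -0.60. Nadsyn1 was at -1.04 after quantile normalization.

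Of the related genes, 5 rose in the fit reported, 3 without probe sets suffixed _s_at, _x_at or _a_at, 9 after quantile normalization, 2 without an intensity trend, 2 without a filter and 2 by size alone. The count that fell, 13, ranged from 9 to 15. Over all genes, 855 rose and 663 fell. The rises ranged from 446 without a filter and 471 without those probe sets to 1192 after quantile normalization and 1210 after median centring, and the falls from 452 without those probe sets and 509 without a filter to 782 after median centring and 1002 after quantile normalization. These counts come from unlike numbers of fitted genes, 11614 without those probe sets and 18193 without a filter, against 12735. For the related genes, the lowest count of falls came without those probe sets. In that setting Nnmt, Sirt3 and Slc22a7 had no probe set left and Kyat1 did not pass. The cause of the other moves was not tested. Leaving out a control leaves no residual degree of freedom and gave differences without a test. No paired analysis was possible because the Cre group holds 1 mouse with no replicate number in the labels. Values near the array background limit the size of the largest falls.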
